A study of Mus musculus with 21 samples.

Results

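The genes described here are 44 genes of double-strand break sensing, homologous recombination and interstrand crosslink (Fanconi) repair, followed across 21 poly-A RNA-seq libraries of mouse embryonic stem cells (mESCs). They were taken by symbol from a list of repair genes, by a rule that used no measured value although earlier results of these data were known, and all 44 were found among the 23412 gene symbols of the count tables. All 44 also passed the filter on low counts that left 14963 genes to test. Their median level was 5.72 on the log2 CPM scale (counts scaled to library size), against 4.33 for all tested genes, and 71.8% of the tested genes lay below it.

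Homologous recombination repairs a broken chromosome by copying the intact sister chromatid. ATM and ATR signal the break, the MRN complex and CtIP resect the ends, and BRCA1, PALB2 and BRCA2 prepare the single-stranded DNA for strand exchange, while the Fanconi proteins bring the same machinery to crosslinked DNA and to stalled replication forks. PDS5A and PDS5B are HEAT repeat subunits that regulate cohesin, the ring complex that holds sister chromatids together, and PDS5B is known to bind BRCA2, so the comparisons ask how the transcripts of this pathway stood when either or both PDS5 proteins were lost. Pluripotent stem cells spend much of their cycle in S phase and are known for high expression of recombination genes.

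There were 7 conditions with 3 libraries each, all from the male mESC line v6.5, and every culture received 50 nM of an siRNA or of siGLO, a transfection control that targets no gene, for 48 h. Wild-type (WT) mESCs received siGLO or siPds5b, Pds5b-KO mESCs received siGLO, and Pds5a-KO mESCs received siGLO, siPds5b, siStag1 or siStag2. Both knockout lines were made by CRISPR/Cas9 editing of the named gene. The 3 replicates of a knockout came from 1 clone, so differences between the clone and the gene it lost cannot be told apart, and the spread between libraries is that within a clone. Cells were grown on gelatin. In bulk RNA, fewer cells that express a gene and less RNA per cell cannot be told apart.

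Sequencing depth ran from 17311090 to 23989198 counts in a library (median 19628146), and the 44 genes together took between 0.306% and 0.385% of the counts. Transcripts of the targeted genes were lower in the conditions named for them. Pds5b was at 2219 ± 177 normalized counts (mean ± SD, n = 3) in WT siGLO, at 776 ± 79.7 in WT siPds5b, at 276 ± 37.2 in Pds5b-KO siGLO and at 903 ± 169 in Pds5a-KO siPds5b. Stag1 was at 2428 ± 118 in Pds5a-KO siGLO and at 575 ± 59.7 in Pds5a-KO siStag1, and Stag2 was at 3256 ± 316 and at 875 ± 69.8 in Pds5a-KO siStag2. The Pds5a transcript was at 5059 ± 295 in WT siGLO and still at 4271 ± 500 in Pds5a-KO siGLO, with libraries that overlapped between 4720 and 4786, so RNA counts alone do not check that knockout. Embryonic stem cell markers were present in every library, and their summed level over 10 genes was 142900 to 154100 normalized counts in WT siGLO, 114900 to 130600 in Pds5a-KO siGLO, 111000 to 126500 in Pds5b-KO siGLO and 98990 to 110900 in Pds5a-KO siPds5b. The summed trophoblast markers were higher in both knockouts than in WT siGLO, and more so with the Pds5a knockout. The sum over 6 genes was 2383 to 2453 in WT siGLO, 7246 to 19720 in Pds5a-KO siGLO, 3628 to 6194 in Pds5b-KO siGLO and 7385 to 18320 in Pds5a-KO siPds5b. The sum over 6 neuroectoderm markers was 3252 to 3862, 2093 to 2490, 3408 to 3725 and 1657 to 1900 in the same order, that over 7 primitive endoderm markers 870 to 1485, 941 to 2018, 1470 to 2678 and 1003 to 1802, that over 5 mesoderm markers 464 to 1206, 261 to 390, 272 to 404 and 315 to 357, and that over 8 fibroblast feeder markers 1169 to 1622, 413 to 1632, 417 to 544 and 529 to 1505. A sum can hide moves of single genes. Of 5 tested neuroectoderm markers, at an edgeR adjusted p under 0.01, 2 were lower in Pds5a-KO siGLO (Nes and Sox1). In Pds5b-KO siGLO 2 were higher (Pax6 and Sox1), and in Pds5a-KO siPds5b 3 were lower and 1 higher than in WT siGLO. These are 40%, 40% and 80%, against 17.8%, 18.2% and 32% of all tested genes. Of the 10 embryonic stem cell markers, 5 were called lower in Pds5a-KO siGLO (Esrrb, Klf4, Nanog, Tdgf1 and Zfp42). In Pds5b-KO siGLO 5 were lower and 1 higher, and in Pds5a-KO siPds5b 6 were lower, or 50%, 60% and 60%. Of 5 tested trophoblast markers, 5, 2 and 4 were higher in the same order and 0 lower, or 100%, 40% and 80%. The part of all these cell type markers in the results below was not tested.

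Most of the repair genes that passed the test were lower in Pds5a-KO mESCs than in WT mESCs, with siGLO and with siPds5b. Calls are those of edgeR's model of all libraries unless another tool is named. Shares of all tested genes are edgeR's throughout, and DESeq2's calls are given without a share of their own. In Pds5a-KO siGLO against WT siGLO, 14 of the 44 genes passed the test at an adjusted p under 0.01, 13 of them lower and 1 higher (Trp53bp1), while 17.8% of all tested genes were called, 8.12% lower and 9.63% higher. The median log2 fold change of the 44 genes was -0.21, and 39 of them, 88.6%, had a negative value, against 49.7% of all tested genes. In Pds5a-KO siPds5b against WT siGLO, in which both proteins were depleted, 27 genes were called, 26 lower and again Trp53bp1 higher, against 32% of all genes, 14.6% lower and 17.4% higher. There the median was -0.29 and 40 of 44 values were negative. Both comparisons use the same WT siGLO libraries and the same Pds5a-KO clone, and most changes were small: apart from Brca2, no gene reached a log2 fold change of 1 in size in these comparisons.

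In Pds5b-KO siGLO against WT siGLO, 4 of the 44 genes were called, 2 higher (Fanca and Trp53bp1) and 2 lower (Rbbp8 and Brip1), fewer than the 18.2% of all genes, of which 9.64% were higher and 8.57% lower. The median was -0.08. In WT siPds5b against WT siGLO, edgeR called 0 of the 44 genes, with 2 at an unadjusted p under 0.05 (Rad51b and Fancg), and DESeq2 also called 0. An unadjusted edgeR p under 0.05 was reached by 4.22% of all tested genes. Of all tested genes 0.00668% was called there, which is the targeted gene Pds5b alone, and the half-width of the 95% interval of a member's log2 fold change had a median of 0.18, close in size to the median shift in Pds5a-KO siGLO. In Pds5a-KO siPds5b against Pds5a-KO siGLO, 3 genes were called, all lower (Nbn, Rad54b and Fance), or 6.82%, against 7.59% of all genes, 3.59% lower and 4% higher.

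**Figure D1:**
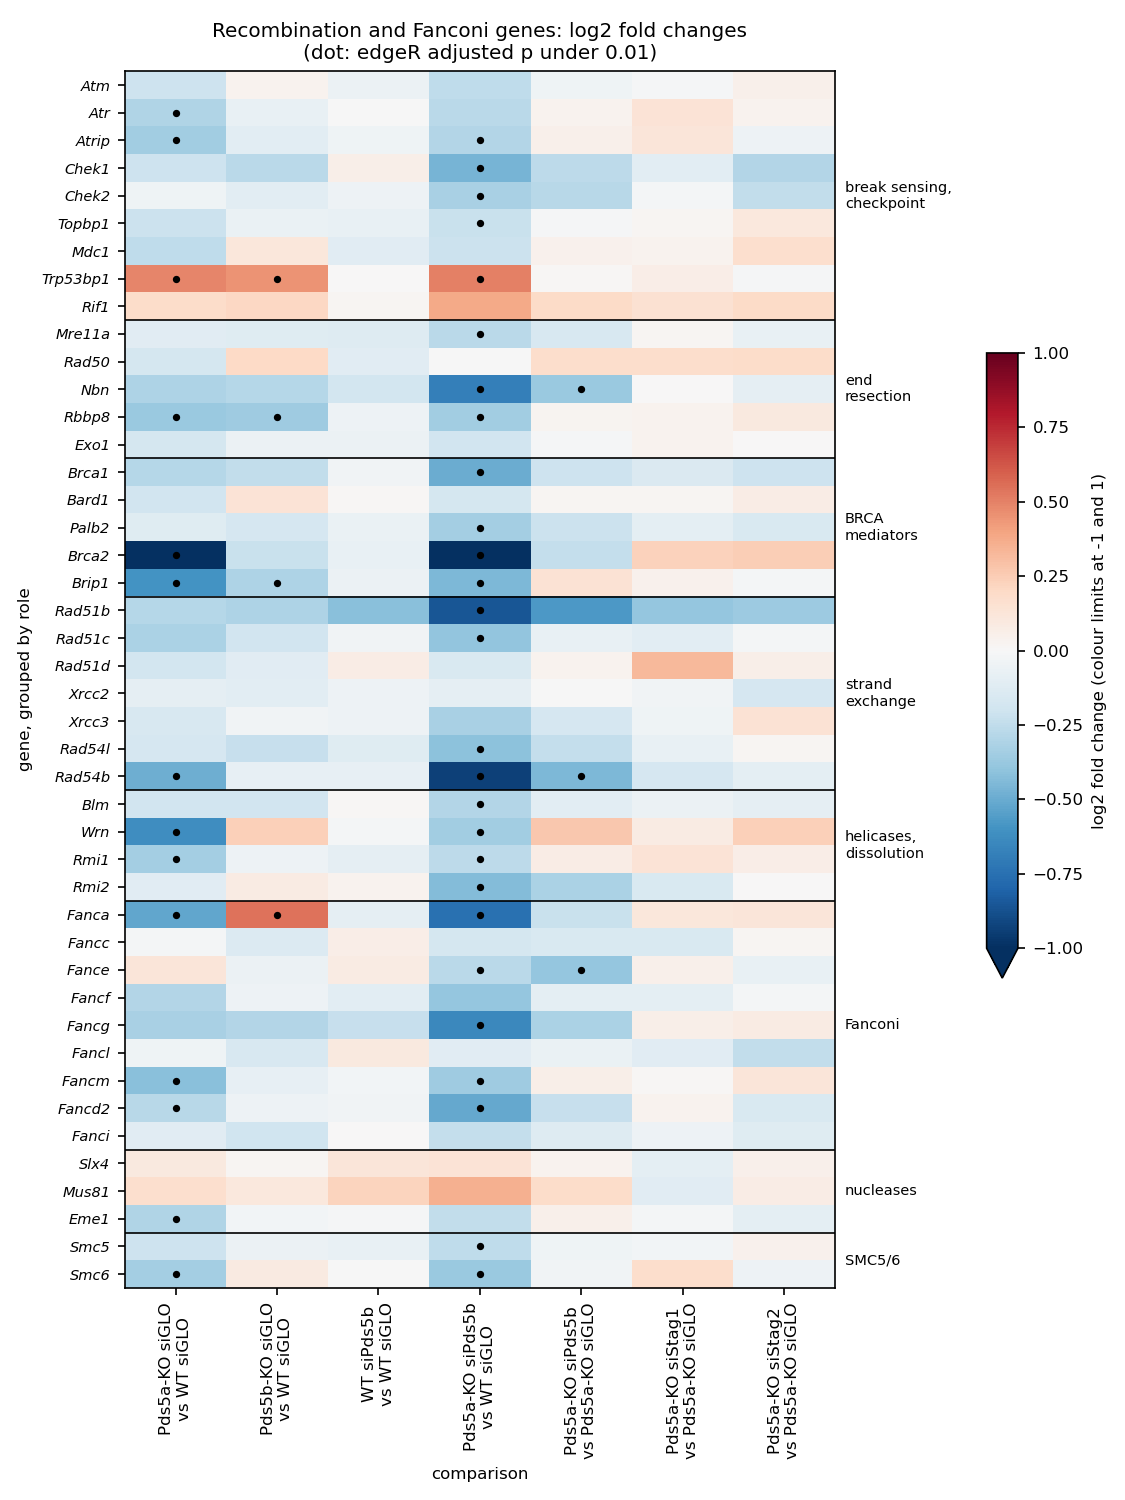
Log2 fold changes of the 44 genes (rows, grouped by role) in 7 comparisons (columns). Blue is lower and red higher in the first-named condition, colours are limited at -1 and 1, and dots mark an edgeR adjusted p under 0.01; the dots gather in the Pds5a-KO siGLO column with 14 and in the Pds5a-KO siPds5b against WT siGLO column with 27.

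**Figure D2:**
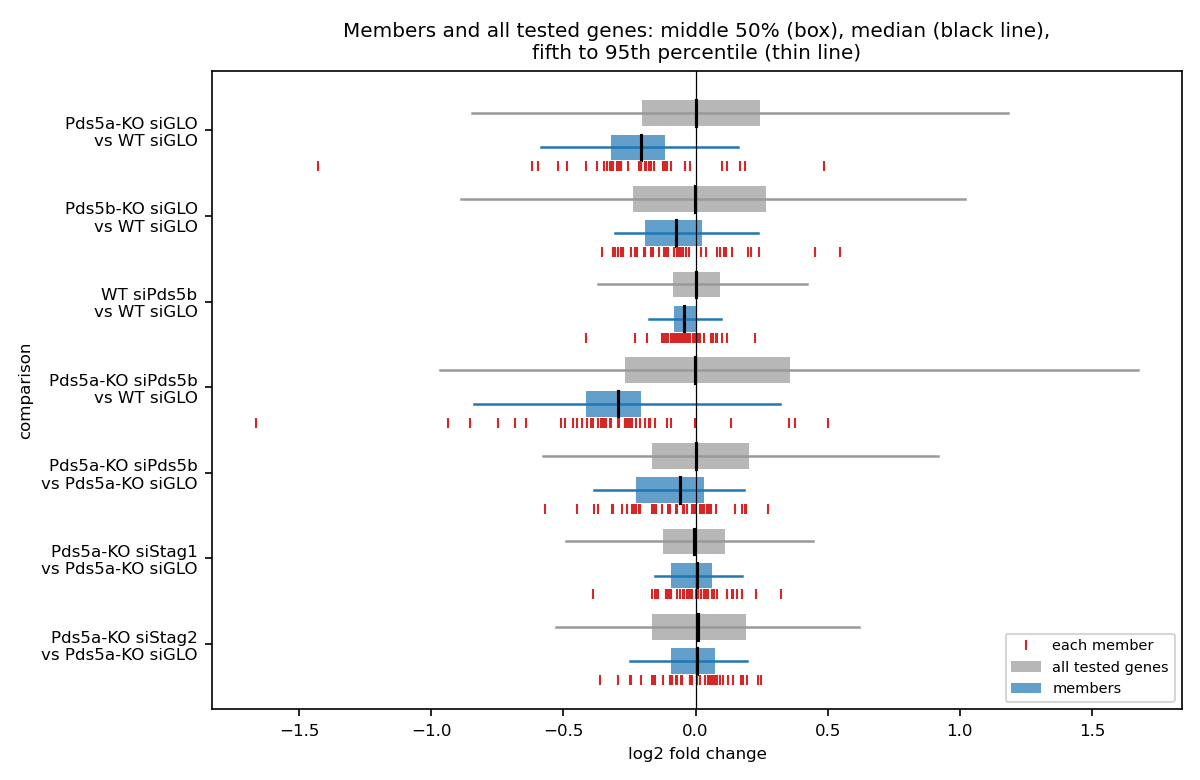
Log2 fold changes (horizontal axis) of the 44 genes (blue) and of all 14963 tested genes (grey) in 7 comparisons. Boxes hold the middle 50% with the median as a black line, thin lines reach from the fifth to the 95th percentile, and red ticks are single genes; the blue median lies at -0.21 in Pds5a-KO siGLO and at -0.29 in Pds5a-KO siPds5b against WT siGLO, while the grey medians lie near 0.

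The promoters of 4 genes are shown because they cover the patterns described below. Brca2 was lower with the Pds5a knockout, and Brip1 was lower in both knockouts, though close to the threshold in Pds5b-KO siGLO. Fanca moved in opposite directions in the knockouts, and Trp53bp1 was higher in both. Each is the window of 250 bases before to 50 bases after the start site in RefSeq (build GRCm38.p6), read along the gene. The windows are chr5:150522371-150522670 on the plus strand for Brca2, chr11:86201144-86201443 on the minus strand for Brip1, chr8:123318527-123318826 on the minus strand for Fanca and chr2:121271358-121271657 on the minus strand for Trp53bp1. Capitals mark an E2F-type motif (TTTGGCGC, TTTCGCGC, TTTCCCGC or TTTGCCGC), the cell cycle homology motif TTTGAA, or CCAAT, each on either strand; the motifs searched do not overlap in these 4 windows.
Brca2: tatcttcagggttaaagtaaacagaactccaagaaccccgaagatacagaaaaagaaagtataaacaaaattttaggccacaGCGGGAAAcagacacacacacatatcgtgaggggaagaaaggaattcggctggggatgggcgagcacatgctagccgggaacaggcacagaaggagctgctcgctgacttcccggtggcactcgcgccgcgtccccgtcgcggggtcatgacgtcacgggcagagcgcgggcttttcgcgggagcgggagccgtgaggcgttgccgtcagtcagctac
Brip1: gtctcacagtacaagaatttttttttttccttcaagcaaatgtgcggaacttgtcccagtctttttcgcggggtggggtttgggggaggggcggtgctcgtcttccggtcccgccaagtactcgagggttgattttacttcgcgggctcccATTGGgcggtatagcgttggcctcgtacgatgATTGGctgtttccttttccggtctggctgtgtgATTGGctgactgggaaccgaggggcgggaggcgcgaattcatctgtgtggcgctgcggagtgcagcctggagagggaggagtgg
Fanca: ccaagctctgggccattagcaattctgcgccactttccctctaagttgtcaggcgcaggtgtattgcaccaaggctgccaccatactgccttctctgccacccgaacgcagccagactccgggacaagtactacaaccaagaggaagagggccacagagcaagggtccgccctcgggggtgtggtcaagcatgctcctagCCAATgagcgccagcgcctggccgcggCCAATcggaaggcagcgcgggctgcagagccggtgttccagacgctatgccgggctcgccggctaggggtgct
Trp53bp1: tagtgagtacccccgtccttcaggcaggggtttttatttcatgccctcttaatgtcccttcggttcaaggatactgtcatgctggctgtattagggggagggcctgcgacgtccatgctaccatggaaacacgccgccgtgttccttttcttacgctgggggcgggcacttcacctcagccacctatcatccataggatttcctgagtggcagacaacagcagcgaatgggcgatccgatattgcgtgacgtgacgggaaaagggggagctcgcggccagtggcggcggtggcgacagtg

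The window of Brca2 held 1 E2F-type motif, that of Brip1 held 3 CCAAT motifs, that of Fanca 2 CCAAT motifs, and that of Trp53bp1 none of the motifs searched. RefSeq windows were at hand for 33 of the 44 genes. An E2F-type motif lay in the windows of 8 of them, or 24.2%, namely Chek2, Topbp1, Mdc1, Bard1, Brca2, Rad51c, Rmi1 and Fancg, against 4.54% of the 10917 tested genes with a window and 2.6% of all 27025 genes with a window. CCAAT was found in 19 of 33, or 57.6%, against 42.8% of the tested genes and 41.1% of all genes, and TTTGAA in 4 of 33, or 12.1%, against 13.8% and 20.2%. These are matches of letters, not sites of binding.

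Among the BRCA mediators, Brca2 showed the largest change of all 44 genes. BRCA2 acts on resected DNA and protects stalled forks; its gene lies at chr5:150522630-150570329 on the plus strand. Brca2 was at 2492, 2056 and 2100.4 normalized counts in the libraries of WT siGLO and at 858, 728 and 887 in those of Pds5a-KO siGLO. It was at 724, 658 and 718 in Pds5a-KO siPds5b, at 795, 1065 and 1041 in Pds5a-KO siStag1 and at 1252, 777 and 902 in Pds5a-KO siStag2. Every one of the 12 Pds5a-KO libraries lay below every WT library, with the nearest values at 1252 and 2012. WT siPds5b mESCs held 2012, 2097 and 2190.3, and Pds5b-KO siGLO mESCs held 2119, 1960.1 and 1626, so these overlapped with WT siGLO. The log2 fold change against WT siGLO was -1.43 ± 0.14 (SE) in Pds5a-KO siGLO (adjusted p = 4.83e-07, 0.372 of the WT level) and -1.66 ± 0.15 in Pds5a-KO siPds5b (adjusted p = 2.1e-08, 0.316 of the WT level). In Pds5b-KO siGLO it was -0.22 ± 0.14 (adjusted p = 0.237), with a 95% interval from -0.51 to 0.07, and in WT siPds5b -0.08 ± 0.14. Adding siPds5b to Pds5a-KO mESCs gave -0.24 ± 0.15 (adjusted p = 0.306).

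Brca2 lies near the targeted gene Pds5b, whose start site is 151 kb downstream of that of Brca2, with N4bp2l1 and N4bp2l2 between them. The 8 other tested genes within 1 Mb were therefore read as well. These neighbours were chosen after the values of Brca2 were seen. In Pds5a-KO siGLO, 1 of the 8 was called, Stard13, which was higher (0.86 ± 0.19, adjusted p = 0.00174), and the median of the 8 was 0.17. The nearest genes stood at 0.48 ± 0.30 for N4bp2l1, 0.02 ± 0.08 for N4bp2l2 and 0.09 ± 0.11 for Pds5b, and Fry on the other side stood at -0.28 ± 0.12 (adjusted p = 0.082). In Pds5b-KO siGLO, Pds5b itself fell by 3.01 on the log2 scale and Fry by 0.74, and in Pds5a-KO siPds5b against WT siGLO 3 of the 8 were called: Stard13 at 1.29 ± 0.19, Hsph1 at -0.29 ± 0.07 and Pds5b at -1.30 ± 0.11. An antisense gene, Gm42529, overlaps exons of Brca2, and the use of strand in counting is not given in the sources used here, so reads of the pair cannot be told apart; in all, 22 of the 44 genes share exonic sequence with another annotated gene, 21 of them with one on the opposite strand.

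**Figure D3:**
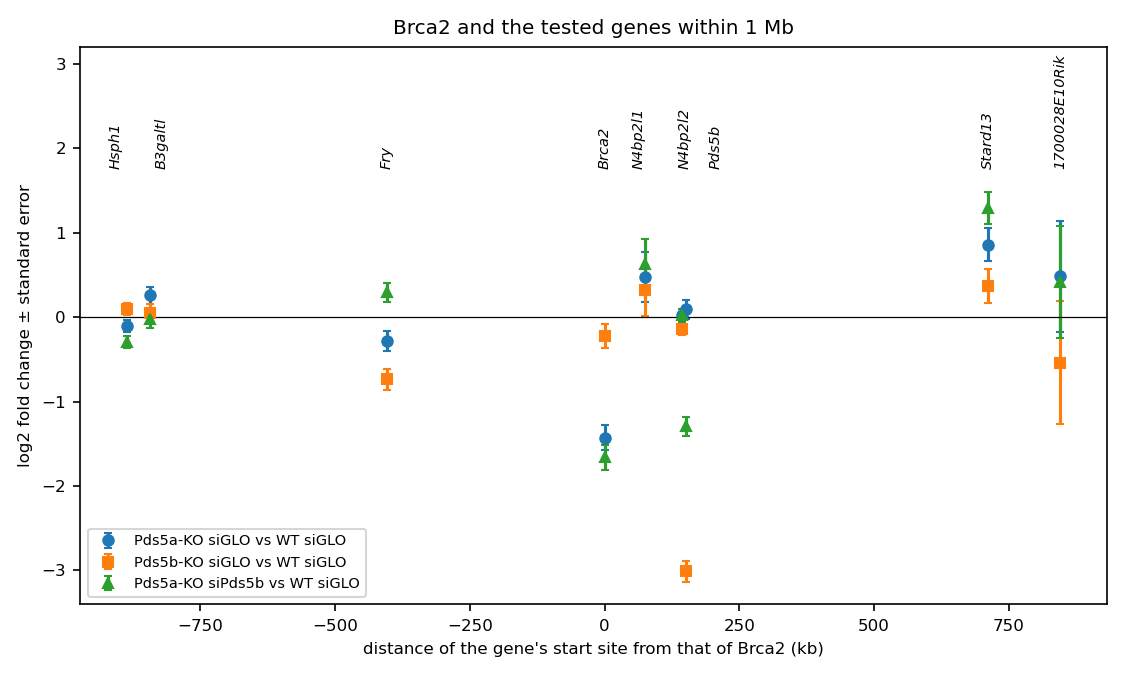
Log2 fold change against WT siGLO (vertical axis, bars are standard errors) of Brca2 and the 8 other tested genes within 1 Mb, by the distance of their start sites from that of Brca2 (horizontal axis, kb). In Pds5a-KO siGLO (circles) Brca2 lies at -1.43 and the other genes between -0.28 and 0.86; in Pds5b-KO siGLO (squares) the lowest point is the targeted gene Pds5b at -3.01.

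Brip1 encodes the BRCA1-associated helicase BRIP1 (FANCJ). It was at 685, 633 and 643 normalized counts in WT siGLO, at 450, 392 and 455 in Pds5a-KO siGLO, at 537, 544 and 506 in Pds5b-KO siGLO and at 527, 460.2 and 448 in Pds5a-KO siPds5b. All of these knockout libraries lay below all WT libraries. The log2 fold change was -0.60 ± 0.09 in Pds5a-KO siGLO (adjusted p = 1.62e-05), -0.31 ± 0.09 in Pds5b-KO siGLO (adjusted p = 0.00919) and -0.45 ± 0.09 in Pds5a-KO siPds5b (adjusted p = 0.000176). The call in Pds5b-KO mESCs was close to the threshold and was lost in 10 of 13 alternative analyses.

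Brca1, which promotes resection and recruits PALB2, was at 4529, 3867 and 4044 normalized counts in WT siGLO and at 3872, 4155 and 4090.2 in WT siPds5b. It was at 3459, 3077 and 3687 in Pds5a-KO siGLO, at 3777, 3387 and 3342 in Pds5b-KO siGLO and at 3009.9, 2746 and 3084 in Pds5a-KO siPds5b. With siStag1 and siStag2 in Pds5a-KO mESCs it was at 3123, 2883 and 3256 and at 2699, 2911 and 3244. The WT siGLO libraries thus lay above those of all 5 knockout conditions, and edgeR called Brca1 after dual depletion (-0.49 ± 0.08, adjusted p = 3.52e-05), with -0.28 ± 0.08 in Pds5a-KO siGLO (adjusted p = 0.0111) and -0.24 ± 0.08 in Pds5b-KO siGLO (adjusted p = 0.0258). DESeq2 also called it in Pds5a-KO siGLO. The difference between the first and the second of these, siPds5b in Pds5a-KO mESCs, was -0.21 ± 0.08 (adjusted p = 0.0877).

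Palb2, the bridge between BRCA1 and BRCA2, was at 858, 882 and 878 normalized counts in WT siGLO, at 826, 825 and 854 in WT siPds5b and at 856, 773 and 774 in Pds5a-KO siGLO. It was at 749.5, 829.5 and 749 in Pds5b-KO siGLO and at 726, 705 and 637 in Pds5a-KO siPds5b. In Pds5a-KO siStag1 and siStag2 mESCs it was at 804, 737 and 710 (709.8), and at 714, 727 and 720.4. It fell after dual depletion (-0.34 ± 0.08, adjusted p = 0.000761) and stood at -0.12 ± 0.08 in Pds5a-KO siGLO. Bard1, the partner of BRCA1 in its ubiquitin ligase, was not called against WT in any condition, with -0.19 ± 0.09 in Pds5a-KO siGLO and 0.14 ± 0.09 in Pds5b-KO siGLO, and was lower in Pds5a-KO than in Pds5b-KO mESCs (-0.33 ± 0.09, adjusted p = 0.0069).

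**Figure D4:**
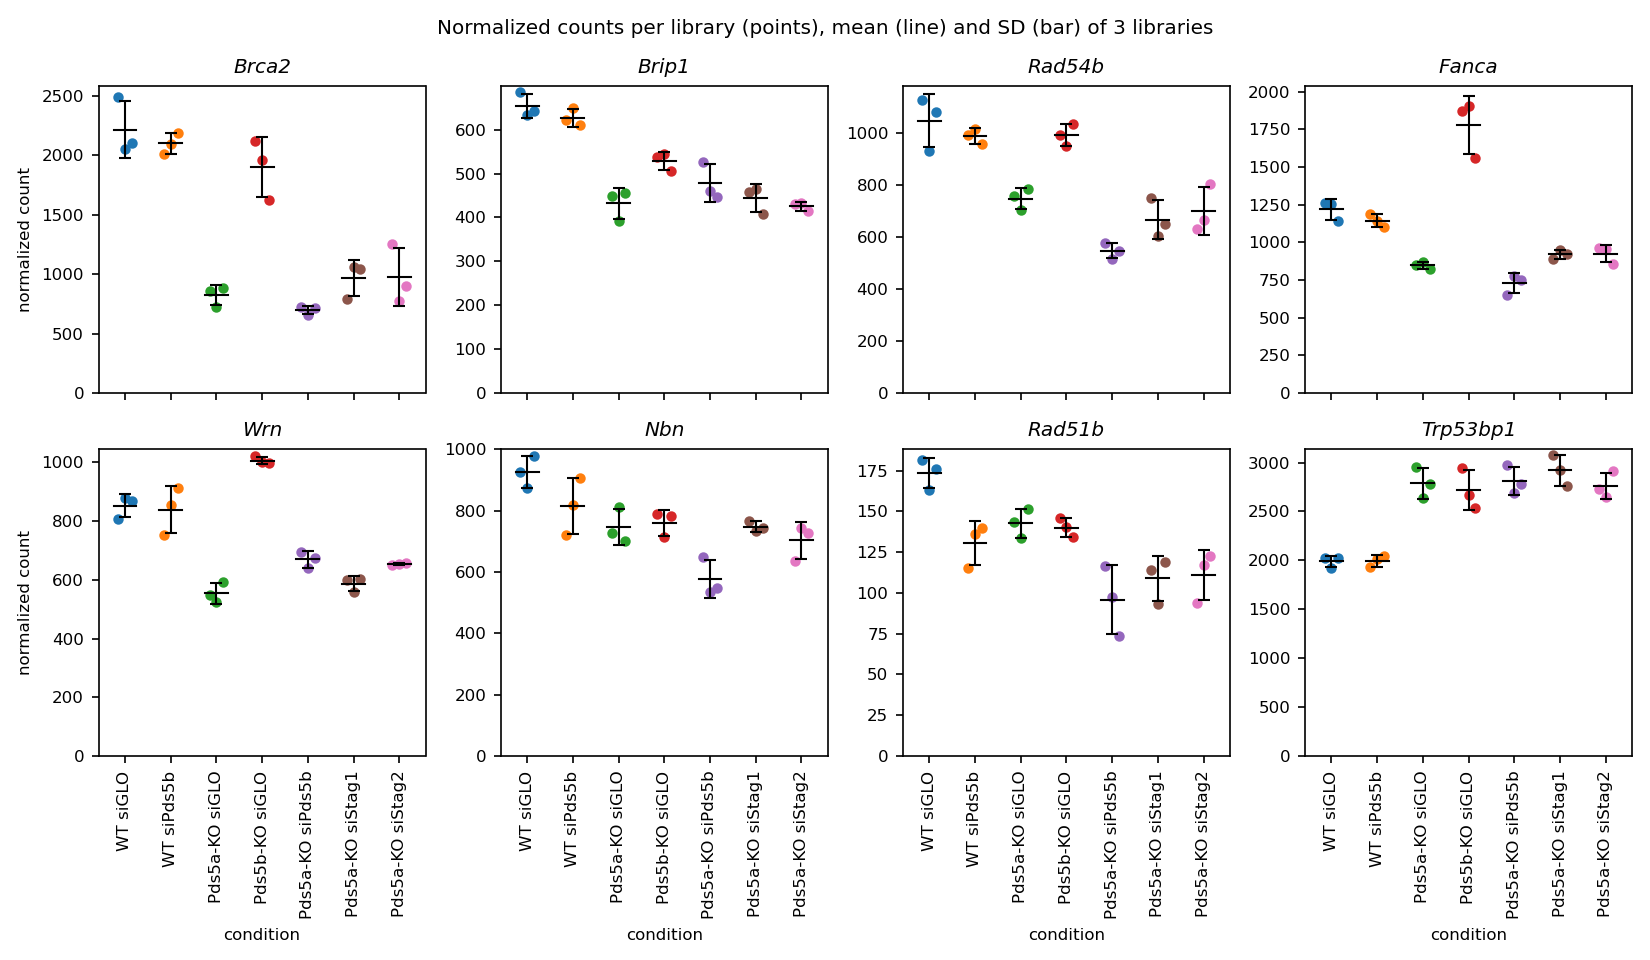
Normalized counts (vertical axes from 0) of 8 genes in each library of the 7 conditions; points are libraries, lines are means and bars SDs of 3 libraries. All 12 Pds5a-KO libraries lie below all WT libraries for Brca2, Fanca and Wrn, and all 15 knockout libraries lie above all WT libraries for Trp53bp1.

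Of the genes that assist strand exchange, among them those of the RAD54 translocases, 1 of 7 was called in Pds5a-KO siGLO (14.3%, against 17.8% of all tested genes) and 4 of 7 after dual depletion (57.1%, against 32%), all lower. Rad54b was at 1126, 931 and 1080 normalized counts in WT siGLO, at 756, 702 and 783 in Pds5a-KO siGLO and at 576, 516 and 547 in Pds5a-KO siPds5b. The 3 conditions did not overlap. Its log2 fold change was -0.49 ± 0.10 in Pds5a-KO siGLO (adjusted p = 0.000444), -0.94 ± 0.10 after dual depletion (adjusted p = 3.99e-08) and -0.45 ± 0.10 for siPds5b in Pds5a-KO mESCs (adjusted p = 0.00241). In Pds5b-KO siGLO it stood at 991, 947 and 1032, a difference of -0.08 ± 0.09. Rad54b shares exonic sequence with Fsbp on the same strand, and the reads of these overlapping genes may not be told apart.

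Rad51b, among the lowest of the 44 genes by level, was at 181, 163 and 176 normalized counts in WT siGLO, at 143, 134 and 151 in Pds5a-KO siGLO and at 116, 97.4 and 73.8 in Pds5a-KO siPds5b. The dually depleted libraries were below all others of these conditions, and the log2 fold change against WT was -0.85 ± 0.16 (adjusted p = 0.000127). Rad51b also had negative values in each comparison of an siRNA with siGLO in the same cells, none of which passed the test: -0.42 ± 0.16 in WT siPds5b (adjusted p = 1, unadjusted p = 0.0141), -0.57 ± 0.16 for siPds5b in Pds5a-KO mESCs (adjusted p = 0.0174), -0.39 ± 0.16 for siStag1 (adjusted p = 0.361) and -0.36 ± 0.16 for siStag2 (adjusted p = 0.157). Rad51c (-0.40 ± 0.10) and Rad54l (-0.41 ± 0.08) also fell after dual depletion, and Rad51d, Xrcc2 and Xrcc3 were not called in any comparison, with values between -0.32 and -0.09 after dual depletion.

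Of the 9 Fanconi genes, 3 were called in Pds5a-KO siGLO, 1 in Pds5b-KO siGLO and 5 after dual depletion, or 33.3%, 11.1% and 55.6%, against 17.8%, 18.2% and 32% of all tested genes. Fanca, a scaffold of the Fanconi core complex, was at 1260 (1259.7), 1258 and 1141 normalized counts in WT siGLO, at 852, 871 and 824 in Pds5a-KO siGLO, at 1875, 1907 and 1559 in Pds5b-KO siGLO and at 653, 780 (779.5) and 750.5 in Pds5a-KO siPds5b. The Pds5a-KO libraries lay below and the Pds5b-KO libraries above every WT library. The log2 fold change was -0.52 ± 0.08 in Pds5a-KO siGLO (adjusted p = 4.94e-05), 0.55 ± 0.08 in Pds5b-KO siGLO (adjusted p = 2.39e-05) and -0.75 ± 0.08 after dual depletion (adjusted p = 1.53e-07). Exons of Fanca overlap Zfp276 on the opposite strand.

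Fancd2, which the core complex monoubiquitinates, fell by 0.28 on the log2 scale in Pds5a-KO siGLO (adjusted p = 0.00699) and by 0.51 after dual depletion (adjusted p = 9.66e-06). Fancm, the translocase that anchors the core complex to DNA, fell by 0.41 (adjusted p = 0.00497) and by 0.36 (adjusted p = 0.00861) in the same comparisons. Fancg was called after dual depletion, at -0.64 ± 0.11 (adjusted p = 5.15e-05), with -0.33 ± 0.11 in Pds5a-KO siGLO (adjusted p = 0.0273). Fance was at 807, 917 and 843 normalized counts in WT siGLO, at 957, 899.7 and 927 in Pds5a-KO siGLO and at 717, 677 and 736 in Pds5a-KO siPds5b. The dually depleted libraries were the lowest, with a log2 fold change of -0.39 ± 0.08 against Pds5a-KO siGLO (adjusted p = 0.00181) and of -0.27 ± 0.08 against WT siGLO (adjusted p = 0.00935). The Fance call against WT siGLO was lost in 10 of 13 alternative analyses. Fancc, Fancf, Fancl and Fanci were not called in any comparison, with values between -0.39 and -0.11 after dual depletion.

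Among helicases and the proteins that dissolve double Holliday junctions, 2 of 4 genes fell in Pds5a-KO siGLO (50%, against 17.8% of all tested genes) and all 4 after dual depletion (100%, against 32%). Wrn, the helicase mutated in Werner syndrome, was at 808, 879.8 and 869 normalized counts in WT siGLO, at 549, 523 and 593 in Pds5a-KO siGLO, at 1021, 1000 and 998 in Pds5b-KO siGLO and at 696, 639.6 and 675 in Pds5a-KO siPds5b. All Pds5a-KO libraries were below and all Pds5b-KO libraries above those of WT siGLO. The log2 fold change was -0.62 ± 0.08 in Pds5a-KO siGLO (adjusted p = 2.78e-06), 0.24 ± 0.08 in Pds5b-KO siGLO (adjusted p = 0.0207) and -0.35 ± 0.08 after dual depletion (adjusted p = 0.000913). Rmi1 and Rmi2, which bind the BLM helicase and topoisomerase IIIα, stood at -0.34 ± 0.08 (adjusted p = 0.00186) and -0.12 ± 0.13 in Pds5a-KO siGLO, and at -0.26 ± 0.08 and -0.43 ± 0.13 after dual depletion. Blm fell after dual depletion (-0.30 ± 0.07, adjusted p = 0.00138). The calls of Rmi1 and Rmi2 after dual depletion were each lost in 8 of 13 alternative analyses, and that of Blm in 2.

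Wrn and Fanca both lie on chromosome 8, Wrn at chr8:33234384-33385527 and Fanca at chr8:123268300-123318576, both on the minus strand. The 777 tested genes of that chromosome had a median log2 fold change of -0.19 in Pds5a-KO siGLO, 0.30 in Pds5b-KO siGLO and -0.23 after dual depletion, whereas the medians of the other chromosomes that hold members lay between -0.03 and 0.07 in Pds5a-KO siGLO and between -0.07 and 0.03 in Pds5b-KO siGLO. Less the chromosome median, Fanca stood at -0.33 in Pds5a-KO siGLO, 0.25 in Pds5b-KO siGLO and -0.52 after dual depletion, and Wrn at -0.43, -0.06 and -0.12. The part of the chromosome-wide shift in the values of both genes was not tested. No other member lies on chromosome 8, and chromosome 5, which holds Brca2, had medians of 0.02 and -0.01.

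Among the end resection genes, Rbbp8, which encodes CtIP, was at 886, 765 and 839 normalized counts in WT siGLO, at 703, 641 and 581 in Pds5a-KO siGLO and at 715, 620.1 and 616 in Pds5b-KO siGLO. Both knockouts lay below WT, with log2 fold changes of -0.37 ± 0.10 (adjusted p = 0.00445) and -0.35 ± 0.10 (adjusted p = 0.00669), and dual depletion gave -0.35 ± 0.10 (adjusted p = 0.00431). Nbn, the NBS1 subunit of the MRN complex, was at 926, 873 and 978 in WT siGLO, at 727, 812 and 701 in Pds5a-KO siGLO and at 648, 534 and 548 in Pds5a-KO siPds5b. These conditions did not overlap, and Nbn fell by 0.68 on the log2 scale after dual depletion (adjusted p = 3.41e-06) and by 0.37 with siPds5b in Pds5a-KO mESCs (adjusted p = 0.00933), with -0.31 ± 0.09 in Pds5a-KO siGLO (adjusted p = 0.0148). The other MRN subunits differed from it: Mre11a fell by 0.27 after dual depletion (adjusted p = 0.0017), and Rad50 stood at -0.00 ± 0.09. Exo1, the exonuclease of long-range resection, was not called by edgeR in any comparison, with -0.18 ± 0.08 in Pds5a-KO siGLO and -0.19 ± 0.08 after dual depletion.

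In the group of break sensing and checkpoint genes, Trp53bp1 was the member that rose. It encodes 53BP1, which limits resection and favours end joining. It was at 2023, 1924 and 2019 normalized counts in WT siGLO, at 2949.7, 2634 and 2778 in Pds5a-KO siGLO, at 2941, 2673 and 2540.2 in Pds5b-KO siGLO and at 2972, 2689.9 and 2783 in Pds5a-KO siPds5b. In WT siPds5b it was at 1929, 2016 and 2047, within the range of or close to WT siGLO, whereas every knockout library was above every WT library. The log2 fold change was 0.49 ± 0.07 in Pds5a-KO siGLO (adjusted p = 1.04e-05), 0.45 ± 0.07 in Pds5b-KO siGLO (adjusted p = 2.74e-05), 0.50 ± 0.07 after dual depletion (adjusted p = 2.65e-06) and 0.01 ± 0.07 in WT siPds5b, with a 95% interval from -0.14 to 0.15. Exons of Trp53bp1 overlap Tubgcp4 on the opposite strand.

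The kinase ATR and its partner ATRIP, which respond to single-stranded DNA, fell at the transcript level in Pds5a-KO siGLO, by 0.30 for Atr (adjusted p = 0.0094) and by 0.34 for Atrip (adjusted p = 0.00183) on the log2 scale. The call of Atr there was lost in 8 of 13 alternative analyses. After dual depletion Atr stood at -0.27 ± 0.08 (adjusted p = 0.0123) and Atrip fell by 0.29 (adjusted p = 0.00403). Atrip shares exonic sequence with Trex1 on the same strand. The ATR activator gene Topbp1 (-0.22 ± 0.06) and the checkpoint kinase genes Chek1 (-0.46 ± 0.08) and Chek2 (-0.32 ± 0.08) were called after dual depletion. DESeq2 also called Topbp1 in Pds5a-KO siGLO and Chek1 in Pds5b-KO siGLO. Atm, Mdc1 and Rif1 were not called against WT in any condition, and stood at -0.25 ± 0.12, -0.21 ± 0.10 and 0.38 ± 0.13 (adjusted p = 0.0283) after dual depletion. Rif1 had the highest level per length of all 44 genes in WT siGLO, at 906 ± 106 normalized counts per kb of exons, followed by Topbp1 at 567 ± 11.4, while Fancc was the lowest at 37.2 ± 1.60 and Brca2 stood at 162 ± 17.6.

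Of the structure-specific nuclease genes, Eme1, the partner of MUS81, fell in Pds5a-KO siGLO (-0.30 ± 0.08, adjusted p = 0.00452) and stood at -0.25 ± 0.08 after dual depletion (adjusted p = 0.0106). Mus81 and the scaffold gene Slx4 were not called in any comparison, and they stood above 0 after dual depletion, at 0.35 ± 0.12 (adjusted p = 0.0209) and 0.13 ± 0.10. Smc6, a core ATPase of the SMC5/6 complex, was at 2787, 2731 and 2864 normalized counts in WT siGLO, at 2265, 2269 and 2101 in Pds5a-KO siGLO and at 3202, 2901 and 2831 (2830.5) in Pds5b-KO siGLO. The Pds5a-KO libraries lay below WT (-0.34 ± 0.07, adjusted p = 0.000881), and dual depletion gave -0.37 ± 0.07 (adjusted p = 0.000169). Its partner Smc5 stood at -0.21 ± 0.08 in Pds5a-KO siGLO (adjusted p = 0.0411) and fell by 0.25 after dual depletion (adjusted p = 0.00864). That call of Smc5 was lost in 9 of 13 alternative analyses.

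The knockouts were compared directly to test whether they differed. In Pds5a-KO siGLO against Pds5b-KO siGLO, 10 of the 44 genes were called, all lower in Pds5a-KO, against 19.2% of all tested genes, 9.46% lower and 9.74% higher. The largest differences were those of Brca2 (-1.21 ± 0.14, adjusted p = 3.26e-06), Fanca (-1.07 ± 0.08, adjusted p = 1.5e-09), Wrn (-0.86 ± 0.08, adjusted p = 1.99e-08) and Smc6 (-0.43 ± 0.07, adjusted p = 7.02e-05), whose values in each library are given above. The other genes called were Rad54b, Rad50, Mdc1, Bard1, Rmi1 and Eme1, with log2 fold changes between -0.41 and -0.27. Chromosome 8 as a whole had a median of -0.48 in this comparison, and less that median Fanca stood at -0.59 and Wrn at -0.38. Trp53bp1 was at 0.04 ± 0.07, with a 95% interval from -0.10 to 0.18, and Brca1 at -0.04 ± 0.08, with an interval from -0.21 to 0.13.

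Whether siPds5b acted differently with and without PDS5A was tested as an interaction. For this, edgeR called 0 of the 44 genes, against 1.48% of all tested genes. An unadjusted edgeR p under 0.05 was reached by 17.3% of all tested genes and by 5 of the 44. These were Fance (-0.47 ± 0.11, adjusted p = 0.0194), Chek1 (-0.32 ± 0.11), Rad54b (-0.37 ± 0.14), Rad50 (0.29 ± 0.12) and Wrn (0.30 ± 0.11). DESeq2, whose share of all tested genes is not given here, called 1 of the 44, Fance. For Brca2 the interaction was -0.16 ± 0.20, with a 95% interval from -0.58 to 0.27.

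The STAG proteins are the other HEAT repeat subunits of cohesin. In Pds5a-KO mESCs, edgeR called 0 of the 44 genes for siStag1 against siGLO and 0.0936% of all tested genes, and DESeq2 called 0 of the 44. An unadjusted edgeR p under 0.05 was reached by 3 of the 44 genes and by 10.7% of all tested genes. With siStag2, edgeR called 0 of the 44 genes and 2.24% of all tested genes. DESeq2, whose share of all tested genes is not given here, called 1 of the 44 with siStag2, Chek1. Here 7 of the 44 genes and 25.3% of all tested genes had an unadjusted edgeR p under 0.05. Chek1 stood at -0.29 ± 0.08 (adjusted p = 0.0227), Chek2 at -0.25 ± 0.08 (adjusted p = 0.0546) and Wrn at 0.24 ± 0.08 (adjusted p = 0.0649). Between siStag2 and siStag1, edgeR and DESeq2 both called 0 of the 44 genes, and edgeR called 0.394% of all tested genes. For this comparison 6 of the 44 genes and 19.9% of all tested genes had an unadjusted edgeR p under 0.05. The median log2 fold change of the 44 genes was 0.01 (0.006 and 0.005) for siStag1 and siStag2 against siGLO.

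Other genes of the pathway were counted on lists for the same comparisons. Of 42 further recombination and Fanconi genes, 6 were called in Pds5a-KO siGLO, 5 lower and 1 higher, 4 in Pds5b-KO siGLO, 2 in each direction, and 10 after dual depletion, 9 lower and 1 higher. In either direction these are 14.3%, 9.52% and 23.8% of the list, each below the 17.8%, 18.2% and 32% of all tested genes. Called lower were 11.9%, 4.76% and 21.4% of the list, against 8.12%, 8.57% and 14.6% of all tested genes. The medians of the list were -0.09, -0.03 and -0.16. Slx1b, the catalytic subunit of the SLX1-SLX4 nuclease, was the gene higher in Pds5a-KO siGLO (0.63 ± 0.08) and after dual depletion (0.41 ± 0.08). In Pds5b-KO siGLO, Slx1b (0.48 ± 0.08) and the meiotic recombinase gene Dmc1 (0.64 ± 0.13) were higher, and Fignl1, which encodes an AAA ATPase, and Rpa3, a subunit of the single-strand binding protein RPA, were lower. Of 14 end joining genes found among 16 listed, 2 were lower in Pds5a-KO siGLO (Lig4 and Polq), 1 in Pds5b-KO siGLO (Mad2l2) and 3 after dual depletion (Lig4, Mad2l2 and Xrcc5), with no member of the list called higher in these comparisons. These are 14.3%, 7.14% and 21.4% of the list, again below the shares of all tested genes called in either direction. Of all tested genes 8.12%, 8.57% and 14.6% were called lower.

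Of 5 other SMC5/6 subunit genes, Nsmce4a was lower in Pds5a-KO siGLO (-0.29 ± 0.08) and after dual depletion (-0.62 ± 0.08), and in Pds5b-KO siGLO Nsmce1 was lower (-0.47 ± 0.09) and Eid3 higher (1.54 ± 0.43). In Pds5a-KO siGLO, Pds5b-KO siGLO and after dual depletion, 20%, 40% and 20% of this list were called. The shares of all tested genes were 17.8%, 18.2% and 32%. Of 32 S phase genes, 13 were called in Pds5a-KO siGLO, all lower, 13 in Pds5b-KO siGLO, 11 lower and 2 higher, and 20 after dual depletion, all lower, with medians of -0.21, -0.18 and -0.32. These are 40.6%, 40.6% and 62.5% of the list, against 17.8%, 18.2% and 32% of all tested genes. Their summed level was 149300 to 150600 normalized counts in WT siGLO, 120000 to 130000 in Pds5a-KO siGLO, 130200 to 139600 in Pds5b-KO siGLO and 112700 to 119900 in Pds5a-KO siPds5b. Of 25 G2 and mitosis genes, 1 was called in Pds5a-KO siGLO (Cdc20, an activator of the anaphase-promoting complex, at 0.34 ± 0.06), 6 in Pds5b-KO siGLO, 2 higher and 4 lower, and 9 after dual depletion, 5 higher and 4 lower. These are 4%, 24% and 36% of the list, against the same 17.8%, 18.2% and 32% of all tested genes. The S phase genes thus moved with the repair genes in both Pds5a-KO conditions, and their part in the result was not tested. In Pds5b-KO mESCs 34.4% of the S phase genes were called lower, against 4.55% of the 44 repair genes; the difference between the lists was not tested.

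**Figure D5:**
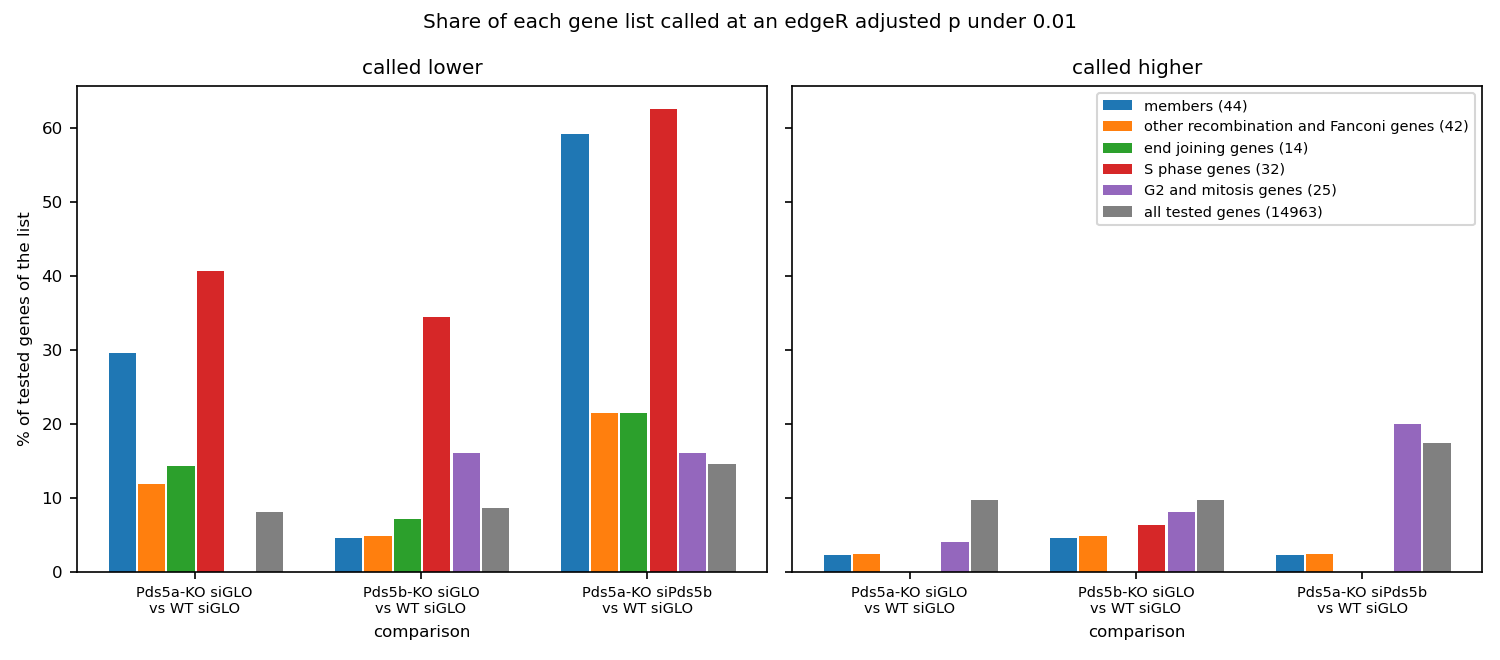
Share of each gene list (vertical axis, % of its tested genes, numbers of genes in the legend) called lower (left) and higher (right) at an edgeR adjusted p under 0.01 in 3 comparisons with WT siGLO. Of the 44 repair genes (blue) 29.5%, 4.55% and 59.1% were lower, and of all tested genes (grey) 8.12%, 8.57% and 14.6%.

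The calls near the threshold depended on the libraries and settings used. Of the 14 genes called in Pds5a-KO siGLO, 7 kept their call in all 13 alternative analyses at that threshold: Trp53bp1, Brca2, Brip1, Rad54b, Wrn, Fanca and Smc6. Of the 27 called after dual depletion, 15 did so, namely those 7 and Chek1, Nbn, Brca1, Palb2, Rad51b, Rad54l, Fancg and Fancd2. Trp53bp1 and Fanca did so in Pds5b-KO siGLO, Brca2, Wrn, Fanca and Smc6 in the direct comparison of the knockouts, and 0 of 3 for siPds5b in Pds5a-KO mESCs.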

How the data were processed

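Poly-A RNA-seq was measured in 21 mESC libraries, 3 in each of 7 conditions assigned from the labels. Reads were aligned with STAR to mm10, per the submitters' notes, and the authors deposited raw counts for each gene symbol without normalization. The counting tool, annotation and use of strand are not given in the sources used here.

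Counts were filtered with edgeR's filterByExpr (14963 of 23412 genes kept), scaled by TMM, and fitted with 1 robust quasi-likelihood model over the 21 libraries (edgeR 4.0.16, R 4.3.3). The quasi-likelihood F test was adjusted by the Benjamini-Hochberg method over all tested genes, and a gene was called at an adjusted p under 0.01. The standard error (SE) of a log2 fold change was computed as its absolute value over the root of F. Normalized counts are TMM-scaled CPM values multiplied by the average effective library size (19816922). Counts per kb were divided by the exonic length in GENCODE's mm10 annotation. Total counts per library were between 17311090 and 23989198, and the number of libraries rather than counting error limits precision. The study calls its RNA-seq replicates biological replicates, each genotype from 1 clone; the labels do not say how the cultures were separated, so p-values measure the spread between libraries of 1 clone. No pair of replicates agreed within counting noise.

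The members were listed by symbol and role, with no measured value in the rule, but they, the gene lists and the markers were chosen with earlier results of these data known. Every called member is named; the 4 with the largest changes in a comparison are given per library, as are Brca2, Brca1 and Palb2, in all conditions. Other lists are given as counts, with called genes named where 5 or fewer were called. Cell type markers are given by their summed level, with calls for the stem cell, neuroectoderm and trophoblast lists.

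Libraries with the same replicate number deviated together (r over 0.1 in each of 3 pairs, over 9763 genes) for WT siPds5b with WT siGLO and for the 3 siRNAs with siGLO in Pds5a-KO mESCs. The main model held no term for this pairing, and the replicate number was used as a block only in an alternative. The alternatives were DESeq2 1.42.0, RLE scaling, library size only, no filter, at least 10 counts in every library, only the conditions compared, the replicate block, an adjusted p under 0.05, and leaving out each library. The test was checked on simulated data. Promoters were taken from RefSeq (GRCm38.p6). Values were plotted with matplotlib 3.10.9.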

Additional observations from a re-analysis of the deposited data

How the results depend on the processing

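Over all alternatives no value changed direction for a called gene. Beyond edgeR's calls, DESeq2 called Topbp1, Nbn, Brca1 and Rad51c in Pds5a-KO siGLO and Chek1 and Wrn in Pds5b-KO siGLO. It further called Eme1 after dual depletion, Wrn for siPds5b in Pds5a-KO mESCs, and Atrip and Brip1 between the knockouts. The counts in this section cover the 44 genes alone. They are not set against the share of all tested genes at the same setting, which changes with the setting too. With a model of only the conditions compared, 8 of the 44 genes were called in Pds5a-KO siGLO, 0 for siPds5b in Pds5a-KO mESCs and 6 between the knockouts. This construction leaves fewer libraries for the spread. At an edgeR adjusted p under 0.05 the counts were 11 in Pds5b-KO siGLO, 9 for siPds5b in Pds5a-KO mESCs, 1 for siStag2 and 1 for the interaction. At the unlike threshold of 0.01, DESeq2 called 1 for siStag2 and 1 for the interaction. With library size only, the median for the interaction was 0.005. When each library was left out, the counts ranged from 7 to 12 in Pds5a-KO siGLO (7 without WT siGLO replicate 1, 9 without WT siGLO replicate 3 or Pds5a-KO siGLO replicate 3), from 2 to 3 in Pds5b-KO siGLO (2 without WT siGLO replicate 1 or 3, or Pds5b-KO siGLO replicate 2 or 3), from 16 to 28 after dual depletion (16 without Pds5a-KO siPds5b replicate 2), from 0 to 5 for siPds5b in Pds5a-KO mESCs (0 without Pds5a-KO siGLO replicate 1 or Pds5a-KO siPds5b replicate 2, 5 without Pds5a-KO siPds5b replicate 1) and from 4 to 9 between the knockouts (4 without Pds5a-KO siGLO replicate 2, 5 without Pds5b-KO siGLO replicate 1, 6 without Pds5b-KO siGLO replicate 2). The medians of the 44 genes ranged from -0.255 to -0.191, from -0.338 to -0.274 after dual depletion, from -0.108 to -0.018 for siPds5b in Pds5a-KO mESCs, from -0.043 to -0.002 between the STAG knockdowns and from -0.179 to -0.106 between the knockouts. The first range is for Pds5a-KO siGLO against WT siGLO. The cause was not tested.

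With the replicate block the counts were 16 in Pds5a-KO siGLO, 5 in Pds5b-KO siGLO, 31 after dual depletion, 3 for siPds5b in Pds5a-KO mESCs, 12 between the knockouts and 0 in the others, and every gene called without the block kept its call. Same-numbered libraries were not shown to be pairs in the comparisons between genotypes.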
